A study of Sus scrofa with 24 samples.

Results

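Inhibitory interneurons of the hippocampus were followed through 10 genes, which are GAD1, GAD2, SLC32A1, SST, PVALB, VIP, NPY, CCK, RELN and LHX6. They were chosen by name, but with earlier results of these data known. They are the genes for making and storing GABA and the peptides and calcium buffer that mark interneuron classes. The others are reelin and a transcription factor of the interneuron lineage. All 10 were found by Entrez identifier among the 38882 genes with counts, and all 10 were among the 16326 genes that passed a filter of 1 CPM (counts scaled to library size) in at least 3 libraries. The libraries were made from hippocampal RNA of 24 piglets aged 14 days, born to PIC Camborough dams and PIC 359 sires. Piglets were small (SGA) or appropriate (AGA) for gestational age, and were fed a control formula (CON) with its fat as triglyceride oils or a hydrolyzed fat formula (HF) with free fatty acids, a monoacylglycerol, lecithin and cholesterol replacing part of it. The AGA CON, SGA CON, AGA HF and SGA HF groups held 6 piglets each. The piglets came from 12 litters in 2 cohorts, and every litter, fed a single diet, gave 1 SGA and 1 AGA piglet matched for sex, with 6 litters to a diet. Size could therefore be compared within litters, whereas diet, sex and cohort were each set for a whole litter.

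GABA is the main inhibitory transmitter of the hippocampus. Glutamate decarboxylases make it from glutamate, a vesicular transporter loads it into synaptic vesicles, and the interneurons that release it differ in the peptides and calcium-binding proteins they carry. Parvalbumin cells mainly inhibit the cell bodies of pyramidal neurons, somatostatin cells mainly inhibit their dendrites, and VIP cells often inhibit other interneurons. Reelin is a secreted matrix protein, made by Cajal-Retzius cells while the hippocampus forms its layers and later by interneurons. Because whole tissue was sequenced, fewer cells of a type and less RNA per cell cannot be told apart in any value below.

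Total counts on genes ranged from 6017336 to 9284355 per library, so that 3 counts, taken as the floor of detection, corresponded to 0.323 to 0.499 CPM. This floor covers counting error only. All 15 excitatory neuron markers and all 10 pan-neuronal markers found in the gene table had counts in these libraries. In AGA CON replicate 2 the summed level of the pan-neuronal markers was 4518 CPM, where the median of its group was 8318 CPM, and its astrocyte marker sum was 16330 CPM against a group median of 13780 CPM. AGA HF replicate 4 was the other library of this kind, with a pan-neuronal sum of 5369 CPM and an astrocyte sum of 16340 CPM. The tests of the 10 genes and their correlations were repeated without both libraries. The methods of the study tie the RNA quality number of these samples to pre-spliced RNA, and the part of RNA quality in the values below was not tested.

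The levels of the 10 genes were first set side by side. GAD1 (chromosome 15, 86375113 to 86419237 in Sscrofa10.2), which encodes the GAD67 form of glutamate decarboxylase, had the most reads of the 10, with 977 to 1797 counts per library. Divided by exon length, however, the peptide genes NPY, CCK and SST led, whereas the peptide gene VIP did not. Neuropeptide Y, encoded by NPY (chromosome 18, 52929745 to 52937666), had a median of 152.6 RPKM, which is CPM per kilobase of exon, and a range of 116 to 225.6. Cholecystokinin, encoded by CCK (chromosome 13, 28610211 to 28615371), had a median of 135 RPKM. This peptide gene is also used by many pyramidal neurons, so its level is not one of interneurons alone.

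Somatostatin, encoded by SST (chromosome 13, 134621119 to 134622301), followed with a median of 112 RPKM over a gene model of only 351 bases. PVALB (chromosome 5, 8553390 to 8573107), the gene of the calcium buffer parvalbumin, had a median of 52.79 RPKM and GAD1 one of 52.64 RPKM. These neighbors could not be ordered, since PVALB lay above GAD1 in 13 of 24 libraries. SLC32A1 (chromosome 17, 47181003 to 47185792), which encodes the vesicular GABA transporter, had a median of 29.19 RPKM.

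The other 4 genes formed a lower tier by RPKM. This tier depended on the division by exon length. Without it RELN, with a median of 49.14 CPM, ranked above SST with 39.32 CPM and PVALB with 32.62 CPM. VIP (chromosome 1, 15890605 to 15896314), the gene of vasoactive intestinal peptide, had a median of 8.366 RPKM, and RELN (chromosome 9, 114069880 to 114180603), the reelin gene, had one of 6.241 RPKM. LHX6 (chromosome 1, 294597333 to 294622577), a LIM homeobox factor of interneurons born in the medial ganglionic eminence, had a median of 5.648 RPKM. GAD2 (chromosome 10, 54614739 to 54689368), which encodes the GAD65 form of the enzyme, was the lowest with 2.15 RPKM.

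**Figure D1:**
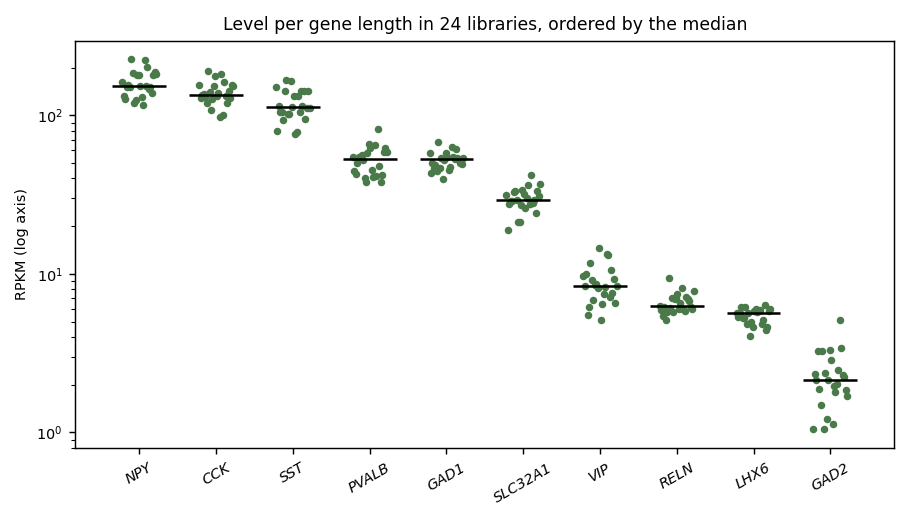
RPKM on a log axis for the 10 genes in each of 24 libraries (points), ordered by the median (bars). SLC32A1 lay above VIP without overlap, at 18.98 RPKM or more against 14.54 RPKM or less, while every other pair of neighbors overlapped.

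Both GABA-synthesizing enzymes are usually found in the same interneurons, but their RNA levels differed widely. GAD1 exceeded GAD2 by a median of 23.6-fold in RPKM (12.1 to 54.7 over 24 libraries). GAD2 had only 16 to 92 counts per library, above the floor in all 24 but few enough that its values are imprecise. Whether the GAD2 gene model of this genome build holds all of the transcript was not tested, nor was it for the other 9 genes. The order by RPKM rests on these models as given, such as 351 bases for SST and 7874 for RELN. None of the 10 genes shared exon positions with another listed gene on either strand.

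Variation between piglets differed among the genes. The biological coefficient of variation, which is the spread between libraries left after counting error and the terms of the edgeR fit, was 0.0824 for LHX6 and 0.0846 for SLC32A1. It reached 0.179 for GAD2 and 0.232 for VIP, where the median of all genes was 0.122. After these terms LHX6 and SLC32A1 thus varied less between libraries than VIP and GAD2. The plain SD of CPM over 24 libraries, as a percent of the mean, was 11.46 for LHX6 and 17.71 for SLC32A1. It was 12.64 for GAD1, 28.01 for VIP and 40.97 for GAD2.

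**Figure D2:**
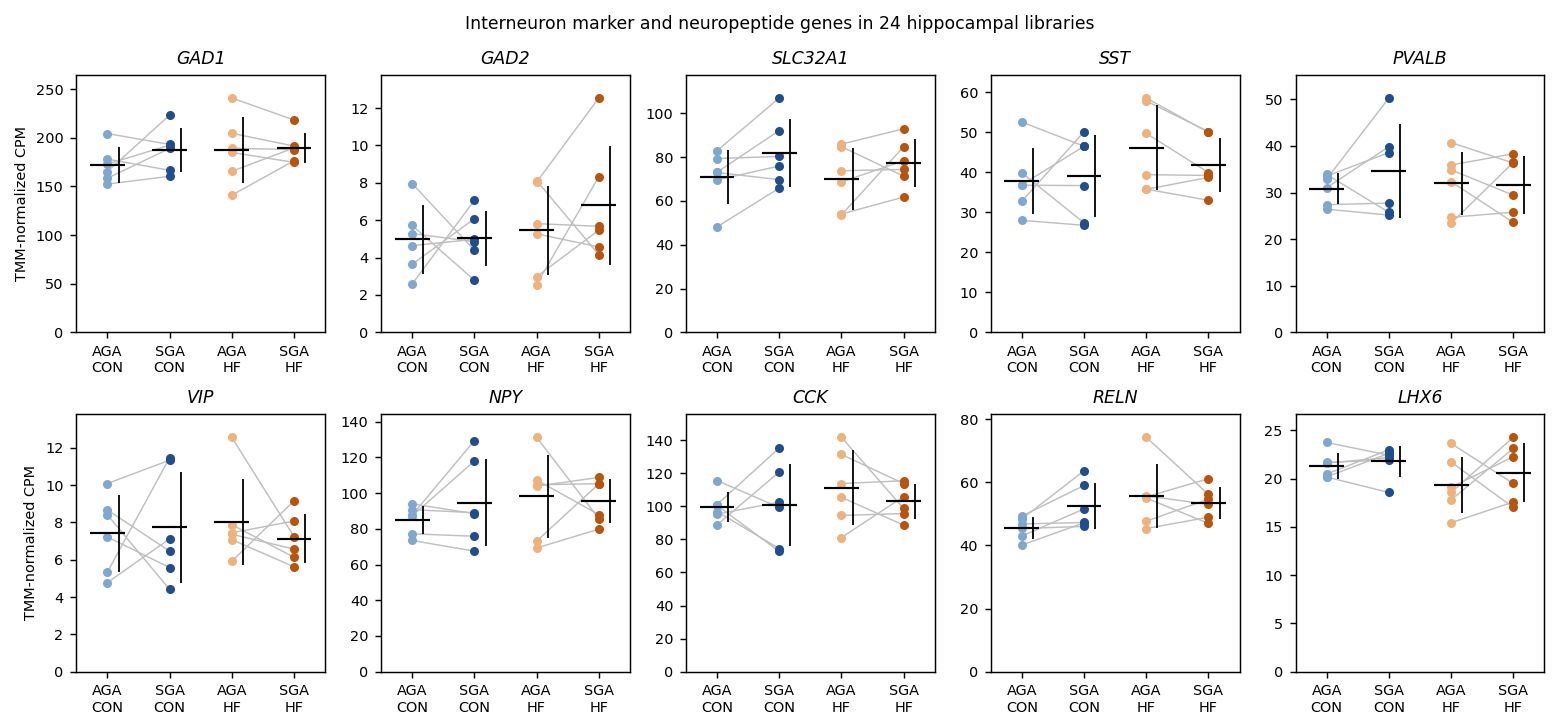
TMM-normalized CPM of each gene in every library by group, with the vertical axis from 0. Points are piglets, gray lines join littermates, horizontal bars are group means and vertical bars are 1 SD on each side (n = 6). The 4 groups overlapped in all 10 genes.

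The first comparison asked whether SGA piglets differed from AGA piglets. None of the 10 genes differed by edgeR's quasi-likelihood test at an FDR p under 0.4, the threshold that the study used for its heat map, where 0.478% of all genes tested did. The FDR p values of the 10 genes were between 0.867 and 0.995. No member had an unadjusted p under 0.05 either, where 10.6% of all genes did. Log2 fold changes lay between -0.22 for VIP and 0.05 for RELN, with 4 genes above 0 and 6 below. In this fit, which does not use the pairing of littermates, the 95% confidence intervals of the 10 genes stayed between 0.667-fold and 1.24-fold. Those of the fit within litters are given below and reached higher.

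The vesicular GABA transporter gave the most regular pattern between littermates. In AGA CON piglets SLC32A1 ranged from 48.18 to 82.93 CPM with a median of 73.05, and in SGA CON piglets from 65.84 to 107 CPM with a median of 78.14. In AGA HF piglets it ranged from 53.63 to 85.92 CPM with a median of 71.24, and in SGA HF piglets from 61.77 to 92.93 CPM with a median of 76.34. The groups overlapped, but SGA exceeded AGA in 10 of 12 litters, 5 of 6 on each diet. The mean difference within litters was 0.18 ± 0.25 on the log2 scale (SD, n = 12).

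With litter as a block and no other covariates, SLC32A1 had a log2 fold change of 0.18 (SE 0.07, unadjusted p = 0.0186, edgeR FDR-adjusted p = 0.51). This was not called, where 2.57% of all genes were. With sex and 5 surrogate variables, which are patterns of variation estimated from the data, the value was 0.04 (SE 0.06, edgeR FDR-adjusted p = 0.948). The largest differences in favor of the SGA piglet were found where the AGA littermate was one of the libraries with low neuronal markers, 0.66 for AGA HF replicate 4 and 0.45 for AGA CON replicate 2. Without both litters the block value was 0.10 (SE 0.06, edgeR FDR-adjusted p = 0.834).

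The other GABA and class genes did not move together between littermates. GAD1 and GAD2 were each higher in the SGA piglet in 6 of 12 litters, and PVALB in 7 of 12. SST was higher in the AGA piglet in 9 of 12 litters, with a mean within-litter difference of -0.05 ± 0.30 on the log2 scale (SD, n = 12). LHX6 was higher in the SGA piglet in 8 of 12 litters, VIP in 5, NPY in 6 and CCK in 6. In the block fit, log2 fold changes of the 10 genes lay between -0.06 and 0.18 and none was called (edgeR FDR-adjusted p 0.51 to 0.95).

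Within single litters the count of genes higher in the SGA piglet ranged from 1 of 10 to 10 of 10. It was 1 of 10 in litter 1 on the HF diet, and 10 of 10 in litter 7 on the HF diet, which holds AGA HF replicate 4. The difference between littermates thus went either way as a group, and most litters lay between 3 and 6 of 10.

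The second comparison asked whether the HF diet shifted these genes. None of the 10 was called (edgeR FDR-adjusted p 0.607 to 1), where 0.159% of all genes were. At an unadjusted p under 0.05 there were 2 of 10, SST and NPY, where 7.09% of all genes passed. Log2 fold changes lay between -0.10 for LHX6 and 0.26 for SST, and 8 of 10 were above 0. Without AGA CON replicate 2 and AGA HF replicate 4 it was 4 of 10, NPY, RELN, GAD1 and SST, where 7.44% of all genes passed, and none was called (edgeR FDR-adjusted p 0.401 or more). This fit counts littermates as separate piglets although diet was given to whole litters, so each gene was also tested over 12 litter sums.

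Somatostatin gave the largest of these differences. SST in CON piglets ranged from 26.76 to 52.56 CPM with a median of 36.84, and in HF piglets from 33.01 to 58.58 CPM with a median of 39.69. The diets overlapped over most of their range. The log2 fold change was 0.26 (SE 0.09, unadjusted p = 0.012, edgeR FDR-adjusted p = 0.607). Over litter sums, CON litters had 38.2 ± 7.46 CPM and HF litters 43.8 ± 8.08 CPM (SD, n = 6 each), a log2 fold change of 0.19 (SE 0.14, edgeR FDR-adjusted p = 0.999 within the contrast). Without the litters of the 2 libraries with low neuronal markers, it was 0.05 over the 10 remaining litters (SE 0.13, edgeR FDR-adjusted p = 0.917).

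NPY, whose peptide is carried by many of the somatostatin cells, had a smaller difference in the same direction. It ranged from 67.52 to 129.4 CPM with a median of 88.12 in CON piglets, and from 69.28 to 131.3 CPM with a median of 104.3 in HF piglets. Its log2 fold change was 0.18 (SE 0.08, unadjusted p = 0.043, edgeR FDR-adjusted p = 0.719). Over litter sums it was 0.12 (SE 0.09, edgeR FDR-adjusted p = 0.999). The value over piglets depended on single libraries and was 0.05 without AGA HF replicate 2, while it was 0.25 without both libraries with low neuronal markers (unadjusted p = 0.00024, edgeR FDR-adjusted p = 0.401). Over the 10 litters without these libraries it was 0.10 (SE 0.10, edgeR FDR-adjusted p = 0.772). Within cohorts, without surrogate variables, the value was 0.23 in cohort 1 and 0.003 in cohort 2 for NPY. SST had 0.28 in cohort 1 and 0.12 in cohort 2.

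RELN had a log2 fold change with diet of 0.15 in the fit over piglets (edgeR FDR-adjusted p = 0.783) and 0.15 over litter sums (SE 0.08, unadjusted p = 0.0917, edgeR FDR-adjusted p = 0.999). Without the 2 libraries with low neuronal markers it was 0.20 over piglets (unadjusted p = 0.00713, edgeR FDR-adjusted p = 0.6) and 0.17 over 10 litters (edgeR FDR-adjusted p = 0.569), and without SGA HF replicate 3 alone it was 0.08 over piglets. LHX6 was 1 of 2 genes with values below 0 over piglets, at -0.10 over piglets and -0.11 over litter sums (SE 0.08, edgeR FDR-adjusted p = 0.999). No gene of all 16326 reached an FDR p under 0.05 for diet over litter sums by edgeR, whereas 650 (3.98%) had an unadjusted p under 0.05, with none of the 10 members among them. The 10 intervals over litter sums stayed between 0.8-fold and 1.59-fold.

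**Figure D3:**
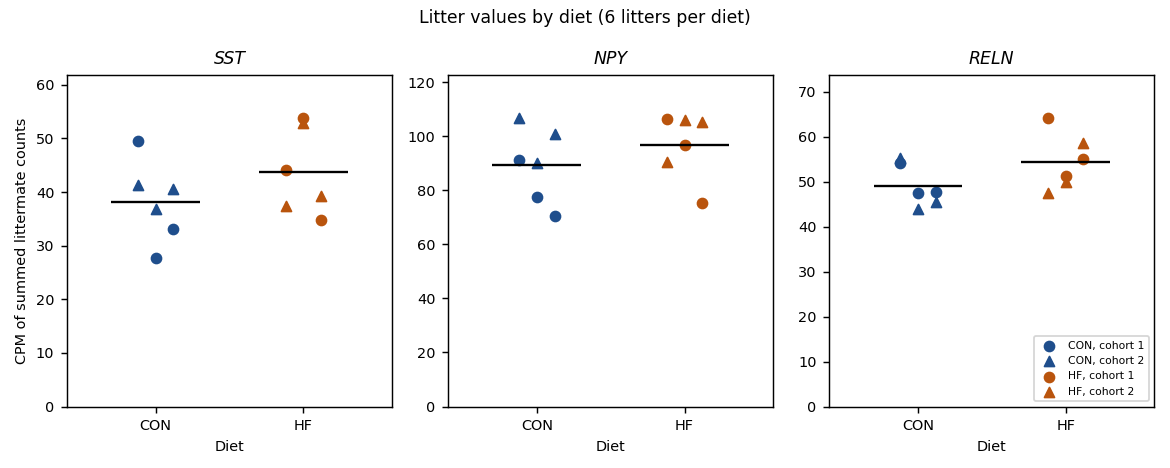
CPM of SST, NPY and RELN from the summed counts of the littermates of each litter, by diet, with the vertical axis from 0. Each point is a litter (6 per diet, circles for cohort 1 and triangles for cohort 2) and bars are means. CON and HF litters overlapped in all 3 genes.

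SST also had the smallest p of the 10 genes between the diets in SGA piglets. Its log2 fold change between SGA HF and SGA CON was 0.30 (SE 0.13, unadjusted p = 0.0292, edgeR FDR-adjusted p = 0.68), where 0.0919% of all genes were called. SGA CON piglets ranged from 26.76 to 50.14 CPM with a median of 41.61, and SGA HF piglets from 33.01 to 50.17 CPM with a median of 39.58. The order of the medians was thus opposite to the fitted value, which is adjusted for sex and surrogate variables. The group means, 39 CPM in SGA CON and 41.84 CPM in SGA HF piglets, had the same order as the fitted value. The calls depended on a single library. Without SGA HF replicate 3, the lowest SST value of its group at 33.01 CPM, SST was called for diet (0.26, edgeR FDR-adjusted p = 0.314) and between SGA HF and SGA CON (0.35, edgeR FDR-adjusted p = 0.353), where 1.97% and 1.31% of all genes were called.

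The third comparison asked whether the difference between SGA and AGA piglets depended on diet. None of the 10 genes had an interaction at an FDR p under 0.4 in edgeR, where 0.049% of all genes did. Reelin had the smallest p among them. In AGA CON piglets RELN ranged from 40.15 to 49.32 CPM with a median of 46.1, and in SGA CON piglets from 46.03 to 63.65 CPM with a median of 49.44. In AGA HF piglets it ranged from 45.37 to 74.29 CPM with a median of 55.21, and in SGA HF piglets from 47.01 to 61.17 CPM with a median of 53.84.

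AGA CON was the lowest group for reelin and the narrowest, and it overlapped with the other 3. On the CON diet the SGA piglet was higher in 6 of 6 litters, by 0.20 ± 0.15 on the log2 scale (SD, n = 6), although in 2 of them the difference was 0.01 and 0.02. On the HF diet it was higher in 3 of 6 litters, and the mean difference was -0.04 ± 0.24 (SD, n = 6). The interaction was -0.30 (SE 0.16, unadjusted p = 0.0708, edgeR FDR-adjusted p = 0.762), and with litter as a block it was -0.24 (SE 0.12, unadjusted p = 0.0583, edgeR FDR-adjusted p = 0.631), where 0.276% of all genes were called. It had the same sign in both cohorts, -0.30 in cohort 1 and -0.21 in cohort 2.

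Between SGA CON and AGA CON piglets, RELN had a log2 fold change of 0.21 (SE 0.12, edgeR FDR-adjusted p = 0.782), and 0.20 with litter as a block (SE 0.09, unadjusted p = 0.0308, edgeR FDR-adjusted p = 0.567), a fit in which 1.26% of all genes were called. Between AGA HF and AGA CON piglets it was 0.30 (SE 0.12, unadjusted p = 0.0185, edgeR FDR-adjusted p = 0.645). These comparisons share the AGA CON piglets. Of all genes, 0.129% were called in the first and 0.0674% in the second.

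The reelin calls also depended on single libraries. Without AGA CON replicate 2, RELN was called for the interaction (-0.39, edgeR FDR-adjusted p = 0.369), between SGA CON and AGA CON (0.31, edgeR FDR-adjusted p = 0.341) and between AGA HF and AGA CON (0.33, edgeR FDR-adjusted p = 0.233). Of all genes, 0.529%, 0.787% and 2.63% were then called. Its own RELN value in that library, 46.82 CPM, was close to the median of its group. Without SGA CON replicate 6, RELN was called between AGA HF and AGA CON (0.30, edgeR FDR-adjusted p = 0.377), where 0.743% of all genes were. With AGA CON replicate 2 and AGA HF replicate 4 both left out, RELN was no longer called in any contrast, at 0.44 between AGA HF and AGA CON (edgeR FDR-adjusted p = 0.401) and -0.47 for the interaction (edgeR FDR-adjusted p = 0.483). In that fit NPY was called between AGA HF and AGA CON instead (0.40, edgeR FDR-adjusted p = 0.345), where 0.0308% of all genes were.

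**Figure D4:**
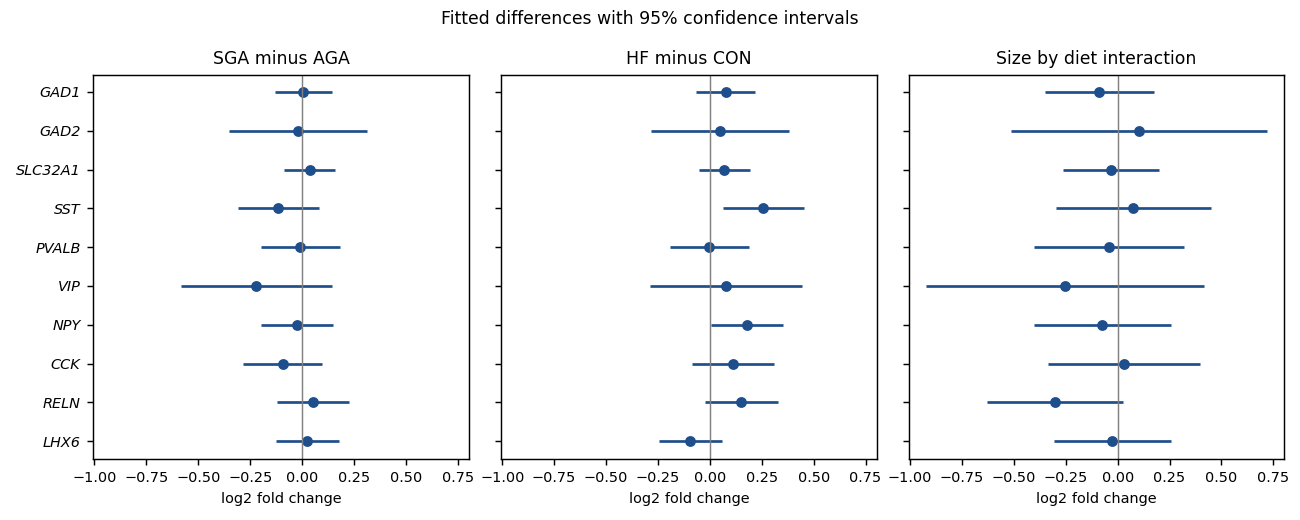
Log2 fold changes (points) with 95% confidence intervals (lines) from the edgeR fit on group, sex and 5 surrogate variables, for size, diet and their interaction. All 10 intervals include 0 for size and for the interaction, and those of SST and NPY lie above 0 for diet before adjustment over genes.

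In the remaining pairwise comparison, between SGA HF and AGA HF piglets, none of the 10 genes was called (edgeR FDR-adjusted p 0.839 to 0.992), where 0.288% of all genes were. With litter as a block none was called either, where 0.888% of all genes were. VIP had the smallest p, with a log2 fold change of -0.35 (SE 0.24, edgeR FDR-adjusted p = 0.839). VIP had only 34 to 106 counts per library, and its interval, -0.84 to 0.15, was wide.

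Sex and cohort were compared over the 12 litter sums. No member was called for either at an FDR p under 0.05 within the contrast by edgeR, where 0.104% of all genes were called for sex and 0.447% for cohort. PVALB had the smallest p for cohort. Its litter values were 29.1 ± 4.06 CPM in cohort 1 and 35.2 ± 4.39 CPM in cohort 2 (SD, n = 6 each), a log2 fold change of 0.23 (SE 0.11, unadjusted p = 0.0535, edgeR FDR-adjusted p = 0.456). CCK had the smallest p for sex, at -0.15 for males against females (SE 0.09, unadjusted p = 0.134, edgeR FDR-adjusted p = 0.999).

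Other genes of the same pathways were then counted. Of 12 tested genes that make, move or break down GABA or set its chloride gradient, none was called for size, diet or the interaction, where 8, 5 and 7 had values above 0. Their median log2 fold changes were 0.06, -0.08 and 0.03, and over all genes the medians were within 0.003 of 0 in these contrasts. SLC12A5, the chloride extruder KCC2, had a log2 fold change of 0.07 for size (edgeR FDR-adjusted p = 0.747). ABAT, which breaks down GABA, had -0.19 with the HF diet (edgeR FDR-adjusted p = 0.609).

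Transcription factors and further subclass markers of interneurons gave a like result. Of 16 tested factors none was called, and the medians were 0.02 for size and -0.02 for diet. Of 29 further subclass markers none was called, with medians of 0.01 for size and -0.06 for diet. With litter as a block, 1 of these 29 was called for size, where 2.57% of all genes were. It was GPD1, a glycerol-phosphate dehydrogenase that is not specific to neurons, which was lower in SGA piglets with 93.44 ± 13.48 CPM against 110.9 ± 11.79 CPM (SD, n = 12 each).

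Of 19 other neuropeptides none was called in the fit over piglets, and the medians were 0.05 for size and 0.05 for diet. PDYN, which encodes the precursor of dynorphins in granule cells of the dentate gyrus, came closest. It had 128.4 ± 32.8 CPM with the HF diet and 108.7 ± 22.69 CPM with the CON diet (SD, n = 12 piglets each, from 6 litters). Its log2 fold change over piglets, which counts littermates separately, was 0.32 (SE 0.09, edgeR FDR-adjusted p = 0.421). Over litter sums it was 0.23 (edgeR FDR-adjusted p = 0.999). CARTPT, the gene of the CART peptide, had -0.43 with diet over piglets (SE 0.15, edgeR FDR-adjusted p = 0.586) and -0.39 over litter sums (edgeR FDR-adjusted p = 0.999). CRH, the gene of corticotropin-releasing hormone, had 8.738 ± 2.183 CPM in SGA and 5.997 ± 1.693 CPM in AGA piglets (SD, n = 12 each) and was the 1 of 19 called for size with litter as a block, where 2.57% of all genes were.

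The enzymes that cut and finish peptide precursors and the receptors that bind the peptides had no called gene among 11 and 10 tested. Among the enzymes, QPCT, which caps peptides with pyroglutamate, had a log2 fold change of 0.41 for size (edgeR FDR-adjusted p = 0.581), PCSK1 had 0.20 and PCSK2 had 0.15 (edgeR FDR-adjusted p 0.644 and 0.645). Both are the convertases of the regulated secretory pathway. Among the receptors, the somatostatin receptor SSTR1 had 0.20 with diet (edgeR FDR-adjusted p = 0.666). The medians of both lists lay between -0.08 and 0.01 for size, diet and the interaction.

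For reelin, its receptors and signaling partners were examined. None of 11 tested genes was called, with medians of 0.02 for size, -0.02 for diet and -0.005 for the interaction. The receptor gene VLDLR had -0.10 for size and -0.12 for diet (edgeR FDR-adjusted p 0.819 and 0.779). None of 7 tested markers of Cajal-Retzius cells was called. The summed level of all 10 listed markers ranged from 126.2 to 299 CPM in AGA HF, 169.1 to 228.5 in AGA CON, 152.6 to 421 in SGA CON and 174.2 to 232.1 in SGA HF piglets, and these ranges overlapped. CALB2, CACNA2D2 and TBR1 were the highest of these markers, with means of 83.7, 56.49 and 52.64 CPM, where TP73 had 0.801 and LHX1 1.9 CPM. CALB2 and TBR1 were also listed as markers of interneurons and excitatory neurons, so the sum is not one of Cajal-Retzius cells alone.

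Markers of the other cells in the tissue were read beside these results. Of 15 excitatory neuron markers 1 was called for size over piglets, where 0.478% of all genes were. It was CAMK2A, a kinase of excitatory synapses (0.13, SE 0.03, edgeR FDR-adjusted p = 0.308). With litter as a block CAMK2A had 0.10 and was not called (edgeR FDR-adjusted p = 0.69). Over piglets 12 of the 15 markers had values above 0 for size, with a median of 0.09. Of 10 oligodendrocyte markers none was called over piglets, but 9 of 10 had values below 0 for size with a median of -0.21. With litter as a block 4 were called for size, CNP, MOBP, OPALIN and MBP, where 2.57% of all genes were. The median of the summed oligodendrocyte markers was 22660 CPM in AGA CON, 23420 in AGA HF, 16980 in SGA CON and 18640 in SGA HF piglets. CPM is a share of each library, and the part of this shift in the values above was not tested.

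For diet, 2 of 10 meningeal markers were called over piglets, PRG4 and TNMD, both higher with the HF diet, where 0.159% of all genes were called. Both were near the floor, with means of 0.602 and 1.1 CPM and no count in 12 and 2 of 24 libraries. Neither was called over litter sums (edgeR FDR-adjusted p = 0.999 for both). None of the tested pan-neuronal, oligodendrocyte progenitor, astrocyte, microglia, endothelial, choroid plexus, striatal, thalamic, or hypothalamic and pituitary markers was called for size, diet or the interaction over piglets. With litter as a block, OLIG1, S100B and 2 excitatory markers, FIBCD1 and BCL11B, were called for size, where 2.57% of all genes were. CSF1R and GH1 were called for the interaction in this fit, where 0.276% of all genes were. The summed hypothalamic and pituitary markers, GH1 among them, reached 386.2 CPM in SGA HF replicate 4, where the median of that group was 39.75 CPM. In the litter of this library all 10 interneuron genes were higher in the SGA piglet, as described above, and the part of the pituitary RNA in this was not tested.

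Finally, the 10 genes were compared in how they varied from library to library. After the 4 group means were subtracted from log2 CPM, 42 of 45 pairs of the 10 genes had a positive Pearson correlation over 24 libraries. The median was 0.295, where that of all pairs of named genes was -0.003. These libraries share litters, cohorts and neuronal content, so the correlations are a description. The closest pair was PVALB and NPY (r = 0.83, Spearman rho = 0.83), and NPY was the nearest of 12362 named genes to PVALB.

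SLC32A1 joined this cluster with r = 0.792 to PVALB, and CCK with r = 0.776 to NPY. Among the 12361 other genes, PVALB was at position 71 for SLC32A1 and NPY at position 2 for CCK. The levels of these genes thus went up and down together among piglets of the same group, but not these genes alone. Without the 2 libraries with low neuronal markers, 35 of 45 pairs were positive with a median of 0.233, and PVALB and NPY had r = 0.805, SLC32A1 and PVALB 0.824, and CCK and NPY 0.768. With cohort means subtracted as well in all 24 libraries, PVALB and NPY had r = 0.822 and CCK and NPY had r = 0.842. SST was nearest to NPY among the 10 genes (r = 0.686), but NPY was only at position 282 of the 12361 other genes. RANGRF, PORCN and FADS3 were the nearest of these.

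Reelin lay apart from this cluster. The gene nearest to RELN was GAD1 (r = 0.725, rho = 0.587). The member nearest to LHX6 was RELN (r = 0.559), at position 68 of the 12361 other genes. GAD2 was nearest to GAD1 among the members (r = 0.469), which was at position 702 of the 12361 other genes. VIP stood alone, with SLC32A1 as its nearest member at r = 0.295 and ST5, GRM3 and GFRA2 as its nearest genes. The genes nearest to the other members were PNMA2 to GAD1, FAM81A to GAD2, YPEL4 to SLC32A1, MIEN1 to NPY, CNN1 to CCK and PPP4R4 to LHX6, with r from 0.736 to 0.888.

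**Figure D5:**
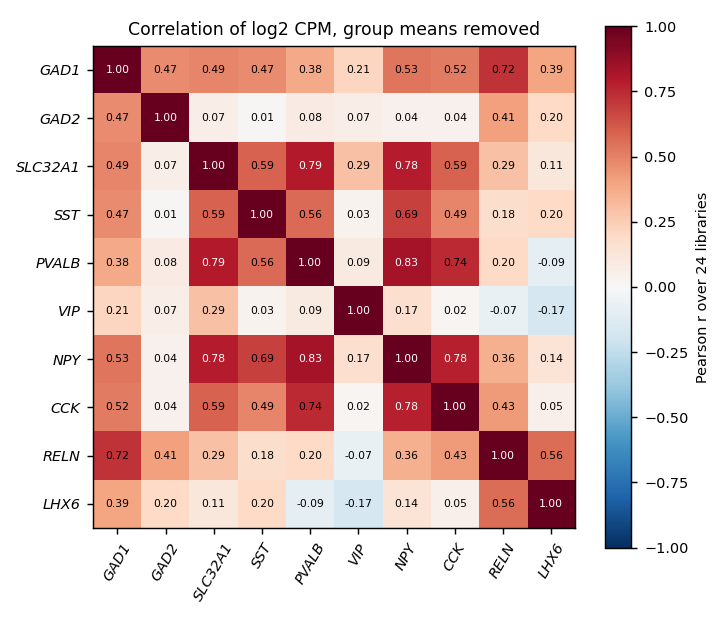
Pearson correlation of log2 CPM over 24 libraries for each pair of the 10 genes after subtraction of the 4 group means, from -1 (blue) to 1 (red). PVALB, NPY, SLC32A1 and CCK had r from 0.593 to 0.83 with each other, and SST had 0.492 to 0.686 with these 4, so the block has no sharp edge. VIP is close to 0 with most genes.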

How the data were processed

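Hippocampal RNA of 24 piglets, 6 per group, was sequenced. The authors trimmed single-end reads with Trimmomatic 0.33, aligned them to Sscrofa10.2 with STAR 2.5.2a, and deposited featureCounts (Subread 1.5.0) strand-aware counts per Entrez gene for each library, without normalization. By the default of this tool, reads that align to several places are not counted. The entry without an identifier, 0.613 to 1.62% of each library, was left out of library sizes and tests. Symbols were matched by identifier to the Sscrofa11.1 gene table; coordinates are those of the deposited files. Of 248 listed symbols, 12 were not matched. Sequences of these genes were not analysed here.

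The counts were tested with edgeR 4.0.16 in R 4.3.3 (quasi-likelihood, TMM factors) on group, sex and 5 surrogate variables (sva 3.50.0, prior count of 2), on genes that reached 1 CPM in 3 libraries or more. FDR p is the Benjamini-Hochberg value over all genes and 7 contrasts, and a gene was called under 0.4. At this threshold up to 40% of calls over the contrasts may be false. In the fit with litter as a block FDR p covers 4 contrasts, and over litter sums (diet, sex and cohort as terms) it covers 1. RPKM is CPM per kilobase of exon in the files. Alternatives used DESeq2 1.42.0, limma 3.58.1 (voom), other filters, scaling and covariates, each cohort alone, and each library left out. The fits were also run on simulated counts drawn independently for each library. These held no litter or cohort structure, so that run does not show how the fits behave with correlated littermates.

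The labels name the litter of each piglet, so SGA and AGA piglets of a litter are paired. Across genes, departures from the group mean correlated between littermates by a mean of 0.154 (0.0144 to 0.329, n = 12), and between other SGA and AGA piglets of 1 diet and cohort by 0.0314 (n = 24). Whether litters shared a sow or sire is not given in the sources used here.

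All 10 genes are named whatever their values. From each gene list, up to 3 genes with the smallest p for size or diet are named, and for each member the nearest genes by correlation. Genes called in a list were named after their values were seen. The members and lists were chosen with earlier results of these data known. The result of 1 listed gene is not reported here.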

Additional observations from a re-analysis of the deposited data

Results flagged for a closer look

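Of 40 sets of 6 values (10 genes in 4 groups), 3 held a piglet whose gap to the nearest of the others was, as a share of the range of the group, above Dixon's 95% critical value for 6 samples. Chance flags about 1 in 20 such sets. VIP in AGA HF replicate 6 was 12.57 CPM, where the other 5 piglets lay between 5.922 and 7.884 CPM. RELN in AGA HF replicate 1 was 74.29 CPM, where the others lay between 45.37 and 55.71 CPM. LHX6 in SGA CON replicate 6 was 18.57 CPM, where the others lay between 21.93 and 22.99 CPM. The RELN value stood in the group behind the difference between AGA HF and AGA CON piglets.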

How the results depend on the processing

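Under the other tests, filters, scalings and covariates and within each cohort, 0 of the 10 genes were called in every contrast, including the replicate block with litter in place of sex and surrogate variables (0 in all 4 contrasts it covers). The number of all genes called for size under these settings ranged from 0 to 1200. With each library left out in turn, 0 to 1 members were called for diet, the interaction, SGA CON against AGA CON, AGA HF against AGA CON and SGA HF against SGA CON, and 0 for size and SGA HF against AGA HF. The calls were RELN without AGA CON replicate 2 or SGA CON replicate 6 and SST without SGA HF replicate 3, and the cause was not tested. Leaving out AGA CON replicate 2 and AGA HF replicate 4 together, and their litters in the fits on litters, was chosen after seeing the data. Over piglets this gave 1 member, NPY, between AGA HF and AGA CON, and 0 in the other 6 contrasts. It gave 0 in all 4 contrasts of the block fit and 0 for diet over 10 litter sums. The log2 fold changes for diet of SST, NPY, CCK and RELN stayed above 0, and that of LHX6 below 0, in 13 other settings and with each of the 24 libraries left out, but their size did not. With single libraries left out SST ranged from 0.18 to 0.32, NPY from 0.05 to 0.23, CCK from 0.04 to 0.16, RELN from 0.08 to 0.18 and LHX6 from -0.16 to -0.07, with the lowest values without AGA HF replicate 2 for SST and NPY, AGA HF replicate 6 for CCK and SGA HF replicate 3 for RELN. For size SLC32A1 and RELN stayed above 0 in 13 other settings, and RELN was below 0 (-0.01) without SGA CON replicate 4. Of the recomputed values and ranks of single genes, 1108 stayed within the spread between littermates or at the same rank and 12 did not. This spread, the SD of the SGA minus AGA differences, was wide, from 0.19 for GAD1 to 0.91 for GAD2 on the log2 scale. A value could change sign within it, as SST did for size, from -0.11 in the main fit to 0.13 in another setting. The count therefore does not show that the signs or sizes of the values held. Without division by exon length GAD1, not NPY, ranked first. Depth limits VIP (34 to 106 counts) and GAD2 (16 to 92 counts) most.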
